A study of Mus musculus with 12 samples.

Results

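Of 31064 genes tested on mouse dental epithelial colonies, 10 AP-1 and immediate early genes (Fos, Fosb, Fosl1, Fosl2, Jun, Junb, Jund, Egr1, Atf3 and Ier2) are described here, taken by symbol as all probes whose accession maps to one of them. AP-1 is a family of dimeric transcription factors built from a Fos protein (Fos, Fosb, Fosl1, Fosl2) and a Jun protein (Jun, Junb, Jund). Fos, Fosb, Jun and Junb are immediate early genes, whose transcription starts within minutes of a growth factor or stress signal without new protein synthesis, as does that of Egr1, Atf3 and Ier2. Egr1 is a zinc finger factor, Atf3 is a stress-induced bZIP factor that pairs with Jun proteins, and Ier2 is a nuclear protein of the same early response. The signal reaches these promoters largely through MAP kinases and serum response factor, and dual specificity phosphatases switch the kinases off again.

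The 10 genes were followed in 12 one-colour Agilent arrays, each of a single colony grown in vitro from mouse dental epithelium of the labial cervical loop, the stem cell niche of the growing incisor. Of the 3 genotypes with 4 colonies each, the first was double null (Bmi1-;Ink4a/Arf-), which lacks the Polycomb protein Bmi1 together with the locus of the cell cycle inhibitors p16Ink4a and p19Arf. The second was Bmi1 null (Bmi1-) with that locus intact, and the third was wild type, all on a mixed background. The labels give neither the age of the animals nor how many animals the colonies came from, so p-values here reflect variation among colonies only. The labels name no medium, passage or treatment, and RNA was amplified before labelling, so a colony is a cultured expansion and its RNA an amplified copy. In such bulk RNA, fewer cells expressing a gene and less of its RNA per cell cannot be told apart.

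Bmi1 itself averaged -2.54 ± 0.20 in double null and -2.36 ± 0.15 in Bmi1 null colonies, against -0.27 ± 0.46 in wild-type colonies (SD, n = 4 each). Bmi1 was still well above background on 4 of 4 arrays of each mutant genotype, and the sources used here do not say whether its probe lies in the deleted part. These levels, like every level below, are log2 of the background-subtracted signal minus the array's 75th percentile. Cdkn2a, which encodes both inhibitors of that locus, was well above background on 0 of 4 double null, 4 of 4 Bmi1 null and 0 of 4 wild-type arrays. All 11 epithelial markers measured were well above background on all arrays. The wild-type arrays stood apart in their range of signal. The interquartile range of log2 signal was 4.04 to 4.93 on double null, 4.32 to 4.69 on Bmi1 null and 2.49 to 2.62 on wild-type arrays. The share of olfactory receptor genes above background was 49.4 to 72.1% on double null, 52.7 to 70.9% on Bmi1 null and 96.5 to 99.5% on wild-type arrays. After scaling on the 75th percentile, the median of all genes lay at -1.41 for double null minus wild type and at -1.24 for Bmi1 null minus wild type, but at -0.07 for double null minus Bmi1 null. Some differences against wild type are also given relative to that median or with arrays scaled on their median.

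The members were measured by 12 probes, and all 12 were well above background on all 12 arrays, with signals between 41.0 and 68810. Fos and Jun were spotted 10 times per array, and the SD among those spots was 0.08 to 0.48 for Fos and 0.05 to 0.16 for Jun. Junb and Fosl2 had 2 probes each and the brighter one stood for the gene, while 8 members had 1 probe. In GRCm38.p6 the genes lie at chr12:85473890-85477274 (Fos), chr7:19302696-19310118 (Fosb), chr19:5447698-5455938 (Fosl1) and chr5:32136472-32157840 (Fosl2). The Jun genes are intronless and lie at chr4:95049036-95052222 (Jun), chr8:84976909-84978748 (Junb) and chr8:70697739-70700616 (Jund). Atf3 lies at chr1:191170296-191183333 and Ier2 at chr8:84661331-84662852.

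The proximal promoters of 4 members are shown as examples. They hold matches to elements of the kind that mediate immediate early signals, as does that of Fosb, which is not shown. These 4 genes differ below in how they vary with genotype. Each line is the 110 bases before the RefSeq start (GRCm38.p6), 5′ to 3′ on the gene's strand, with the matched element in capitals.
Fos (chr12:85473780-85473889, plus strand): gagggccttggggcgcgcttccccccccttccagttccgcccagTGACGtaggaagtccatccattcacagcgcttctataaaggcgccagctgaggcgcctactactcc
Jun (chr4:95052223-95052332, minus strand): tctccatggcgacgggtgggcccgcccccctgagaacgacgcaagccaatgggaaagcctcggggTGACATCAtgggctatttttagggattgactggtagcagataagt
Junb (chr8:84978749-84978858, minus strand): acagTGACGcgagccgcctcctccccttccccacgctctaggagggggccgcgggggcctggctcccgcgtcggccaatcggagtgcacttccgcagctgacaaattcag
Atf3 (chr1:191183334-191183443, minus strand): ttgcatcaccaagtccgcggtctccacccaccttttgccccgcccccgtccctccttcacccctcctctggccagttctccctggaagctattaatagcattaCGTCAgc

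The capitals mark the cyclic AMP element half-site TGACG in Fos and Junb, the same half-site on the other strand in Atf3, and in Jun the variant AP-1 site TGACATCA. The half-site lay 66 to 62 bases before the start in Fos, 106 to 102 bases before it in Junb and 7 to 3 bases before it in Atf3. A second copy in Fos, 129 to 125 bases before the start, falls outside the stretch shown. The Jun site lay 45 to 38 bases before the start. Both strands of 250 bases before the start were searched in the 7 members that the promoter table holds. Fosb also had the half-site, 60 to 56 bases before its start, and a match to the Egr site GCGNGGGCG 50 to 42 bases before it. Fosl2 had an Egr site match 79 to 71 bases before its start. Among 27025 promoters searched over the same length, 17.9% held TGACG, 3.02% TGACATCA, 4.65% GCGNGGGCG, 4.43% the AP-1 site TGACTCA, 1.62% the full element TGACGTCA and 1.4% a CArG box, the binding sequence of serum response factor. The full element (which overlaps TGACG), the AP-1 site TGACTCA and the CArG box were not found in any of the 7 windows. Egr1 was not among these 7 members, and sequence further upstream was not searched. These matches describe the sequence and do not show binding.

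**Figure D1:**
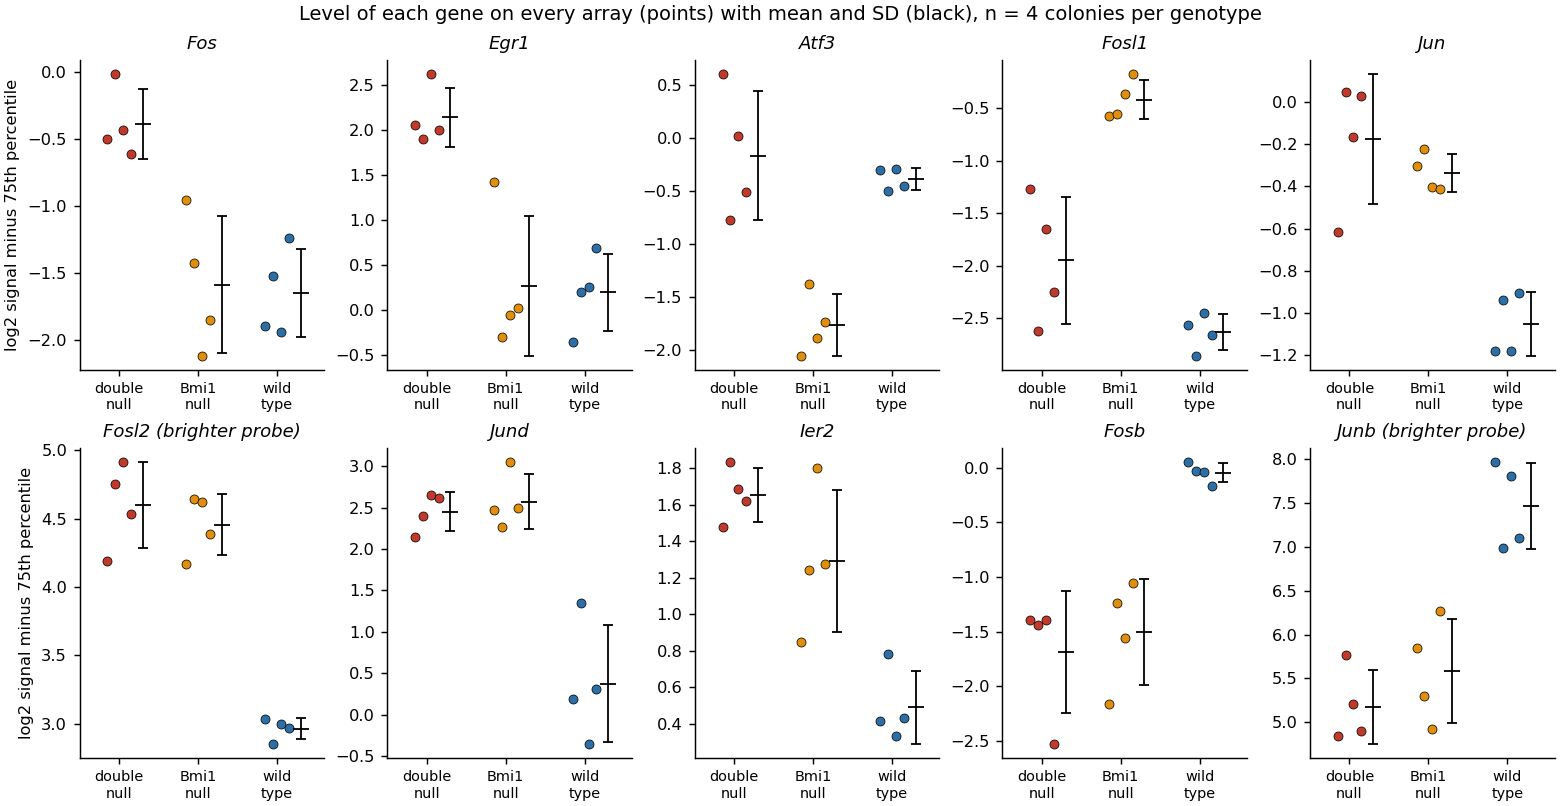
Level of each of the 10 genes (log2 signal relative to the array's 75th percentile) on every array, with double null at the left, Bmi1 null in the middle and wild type at the right, and black bars for the mean and SD of 4 colonies. Fos and Egr1 are higher in double null than in both other genotypes, Atf3 is lowest and Fosl1 highest in Bmi1 null, and the remaining members separate both mutant genotypes from wild type.

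Setting double null against Bmi1 null colonies asks what loss of Ink4a/Arf changes on a Bmi1 null background. Fos, Egr1 and Atf3 were higher and Fosl1 was lower in double null colonies, by 2.29-, 3.67-, 3.02- and 2.90-fold. The other 6 members did not pass the test. Across all genes tested, 2.75% were called higher and 4.8% lower at a Benjamini-Hochberg adjusted p under 0.05 in limma. Among the 10 members 3 were called higher and 1 lower.

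Fos, the founding immediate early member of the family, had levels of -0.50, -0.015, -0.43 and -0.61 in double null colonies, against -0.95, -1.42, -2.12 and -1.85 in Bmi1 null colonies. Every double null colony was above every Bmi1 null colony, and the Bmi1 null colonies spread over more than a log2 unit. The means were -0.39 ± 0.26 in double null and -1.59 ± 0.51 in Bmi1 null colonies (SD, n = 4 each), a difference of 1.197 ± 0.27 (SE, limma adjusted p = 0.0185). The Fos call was the least secure of the 4. It was lost without double null replicate 2 (1.07, limma adjusted p = 0.0525), without Bmi1 null replicate 4 (1.11, limma adjusted p = 0.0557), with quantile normalization (1.06, limma adjusted p = 0.0597) and with only the 2 genotypes compared in the fit (limma adjusted p = 0.0621).

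Egr1, which is induced alongside Fos and binds GC-rich sites, had levels of 2.05, 1.90, 2.63 and 2.00 in double null colonies, against 1.42, -0.31, -0.054 and 0.017 in Bmi1 null colonies. The double null colonies lay close together, and 1 Bmi1 null colony, replicate 1, lay well above the other 3 without reaching them. The means were 2.15 ± 0.33 in double null and 0.27 ± 0.78 in Bmi1 null colonies, a difference of 1.88 ± 0.36 (SE, limma adjusted p = 0.00782). The same Bmi1 null colony was also the highest of its genotype for Fos.

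Atf3 had levels of 0.60, -0.78, 0.017 and -0.51 in double null colonies, against -2.05, -1.37, -1.89 and -1.74 in Bmi1 null colonies. The groups did not overlap, although the double null colonies spread widely. The means were -0.17 ± 0.61 in double null and -1.76 ± 0.29 in Bmi1 null colonies, a difference of 1.59 ± 0.28 (SE, limma adjusted p = 0.00516).

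Fosl1, which encodes the Fos family protein Fra-1 and responds later and longer than Fos to growth factor signals, ran the other way. Its levels were -1.27, -2.63, -1.65 and -2.25 in double null colonies, against -0.57, -0.55, -0.37 and -0.17 in Bmi1 null colonies. The 4 Bmi1 null colonies were tightly grouped above all double null colonies. The means were -1.95 ± 0.61 in double null and -0.42 ± 0.19 in Bmi1 null colonies, a difference of -1.53 ± 0.27 (SE, limma adjusted p = 0.00545).

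Among the members not called, Ier2 differed by 0.36, Jun by 0.16, Fosl2 by 0.14, Jund by -0.12, Fosb by -0.19 and Junb by -0.41. The levels of double null and Bmi1 null colonies overlapped for each of these 6. Their 95% intervals all held 0 and extended as far as 0.83 for Ier2 and -1.13 for Junb, so differences of up to that size are not excluded. None of the 3 Jun genes was called between the mutant genotypes.

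Slide, which is also scan time, was not balanced over genotypes, and only slide 2 held every genotype. Double null and Bmi1 null colonies shared slides 2 and 4 only. With slide as a block the differences were 1.23 for Fos, 2.28 for Egr1, 1.79 for Atf3 and -1.23 for Fosl1, with limma adjusted p of 0.107, 0.0636, 0.0611 and 0.106, so no member was called. In that fit 0.95% of all genes were called. Within slide 2, with 1 colony of each genotype, the differences were 0.99 for Fos, 2.93 for Egr1, 1.39 for Atf3 and -1.10 for Fosl1. Within slide 4, with 2 double null colonies and 1 Bmi1 null colony, they were 1.56 for Fos, 2.08 for Egr1, 1.93 for Atf3 and -1.39 for Fosl1. All 4 thus kept their direction on both slides.

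**Figure D2:**
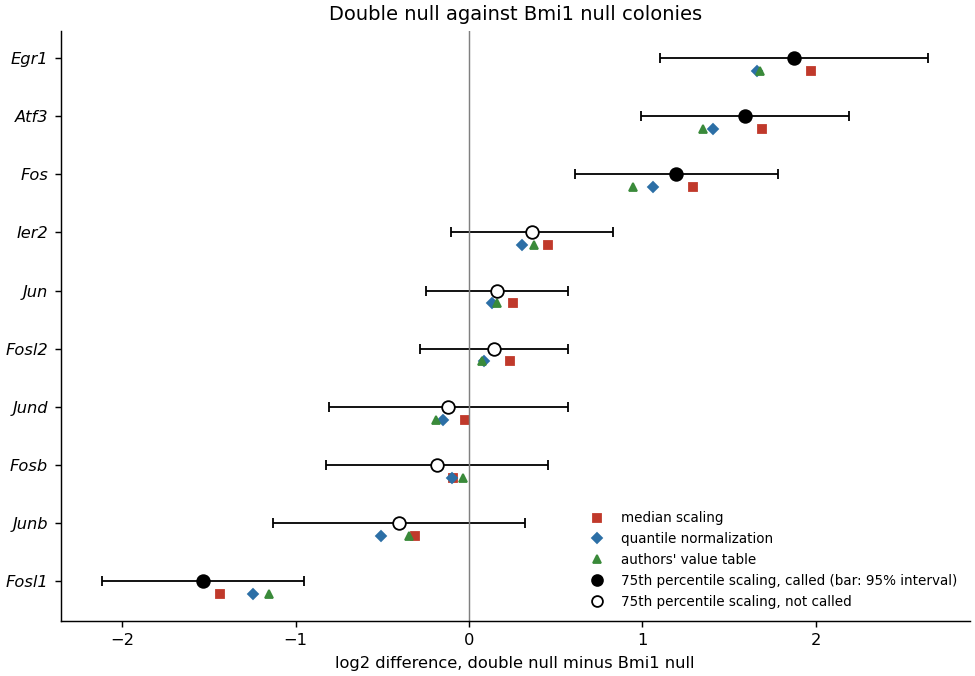
Difference in log2 level, double null minus Bmi1 null, for each of the 10 genes. Circles are values after 75th percentile scaling, filled where called, with 95% intervals, and small symbols are median scaling, quantile normalization and the authors' value table. Egr1, Atf3 and Fos lie to the right of 0 and Fosl1 to the left under all 4.

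Most genes around the family were not called between double null and Bmi1 null colonies. Of all genes tested, 2.75% were called higher and 4.8% lower in that comparison. Of 16 AP-1 partner and related bZIP factors tested, 1 was higher and 0 were lower, at a median difference of 0.14 beside -0.07 for all genes. The gene was Atf5, a bZIP factor of the stress response (1.08 ± 0.26, limma adjusted p = 0.0252). Of 30 other immediate early genes, 1 was higher and 2 were lower, at a median of -0.005. Ccn2, a matricellular protein gene, was higher (1.76 ± 0.30, limma adjusted p = 0.0046). Btg2, an antiproliferative gene also induced by p53, was lower (-1.46 ± 0.29, limma adjusted p = 0.00902), as was Gadd45g, a growth arrest gene (-0.96 ± 0.26, limma adjusted p = 0.0457).

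The upstream genes gave 2 higher and 1 lower of 24 MAP kinase and serum response factor genes, at a median of 0.27. Map3k1, a kinase upstream of the Jun kinases, averaged -0.003 ± 0.36 in double null and -1.38 ± 0.42 in Bmi1 null colonies (difference 1.38, limma adjusted p = 0.00559). Srf, the serum response factor that drives Fos and Egr1 through CArG boxes, averaged 2.80 ± 0.11 in double null and 2.11 ± 0.15 in Bmi1 null colonies (difference 0.70, limma adjusted p = 0.0274). Mapk13, a p38 kinase, averaged 1.89 ± 0.53 in double null and 3.19 ± 0.15 in Bmi1 null colonies (difference -1.30, limma adjusted p = 0.0082). Of 11 dual specificity phosphatases and Nab repressors, 0 were higher and 2 were lower, at a median of -0.18. These were Dusp1 (-1.08, limma adjusted p = 0.033) and Dusp4 (-1.002, limma adjusted p = 0.0301), both of which remove phosphate from MAP kinases. Neither was called with median scaling or quantile normalization. Of 12 EGF family ligands and receptors, 0 were higher and 2 were lower, at a median of -0.31. The 2 were ligands, Ereg (-2.12, limma adjusted p = 0.00613) and Nrg1 (-1.46, limma adjusted p = 0.0215).

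Downstream, 1 of 16 known AP-1 target genes was higher and 2 were lower, at a median of -0.17. Itga5, the fibronectin receptor subunit, was higher (0.74, limma adjusted p = 0.0427). Sprr1b, a precursor of the cornified envelope of keratinocytes, averaged 0.89 ± 0.95 in double null and 3.61 ± 0.30 in Bmi1 null colonies (difference -2.72, limma adjusted p = 0.00685). Lor, which encodes the envelope protein loricrin, averaged 1.23 ± 3.16 in double null and 5.48 ± 0.63 in Bmi1 null colonies (difference -4.26, limma adjusted p = 0.0419). Its double null colonies ran from -1.71 to 5.72 and overlapped the Bmi1 null range. Of 11 heat shock and stress genes, 0 were higher and 1 was lower, Hmox1, the haem-degrading enzyme (-1.49, limma adjusted p = 0.00664), at a median of -0.006.

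Of these 15 called genes in the 7 lists, 7 were called in all of the fits that left out 1 array, namely Ccn2, Btg2, Map3k1, Mapk13, Ereg, Hmox1 and Sprr1b. Atf5 lost its call without Bmi1 null replicate 1 or 2 or double null replicate 4, and Nrg1 without Bmi1 null replicate 4 or double null replicate 2 or 4. Of the 12 such fits Srf lost its call in 5, Dusp1 in 6, Dusp4 in 7, Itga5 in 10, and Gadd45g and Lor in 11 each. With slide as a block 0 of the 15 were called and all 15 kept their sign.

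Epithelial markers also moved between the mutants, with 3 higher and 1 lower of 11. Cldn7, a tight junction claudin, averaged 3.004 ± 0.69 in double null and -0.57 ± 0.22 in Bmi1 null colonies, and Col17a1, a basal adhesion collagen, averaged 1.71 ± 0.27 in double null and 3.15 ± 0.41 in Bmi1 null colonies. With slide as a block Cldn7 alone of the 4 called markers kept its call (3.69, limma adjusted p = 0.0148), and Col17a1 was at -1.67 (limma adjusted p = 0.0891). The summed linear level of the epithelial list was 449.6 to 893.4 in double null and 492.4 to 679.6 in Bmi1 null colonies. Of 12 mesenchymal, 9 immune and 6 endothelial markers, 0 were called in either direction. The part of cell composition in the differences of the AP-1 genes was not tested.

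**Figure D3:**
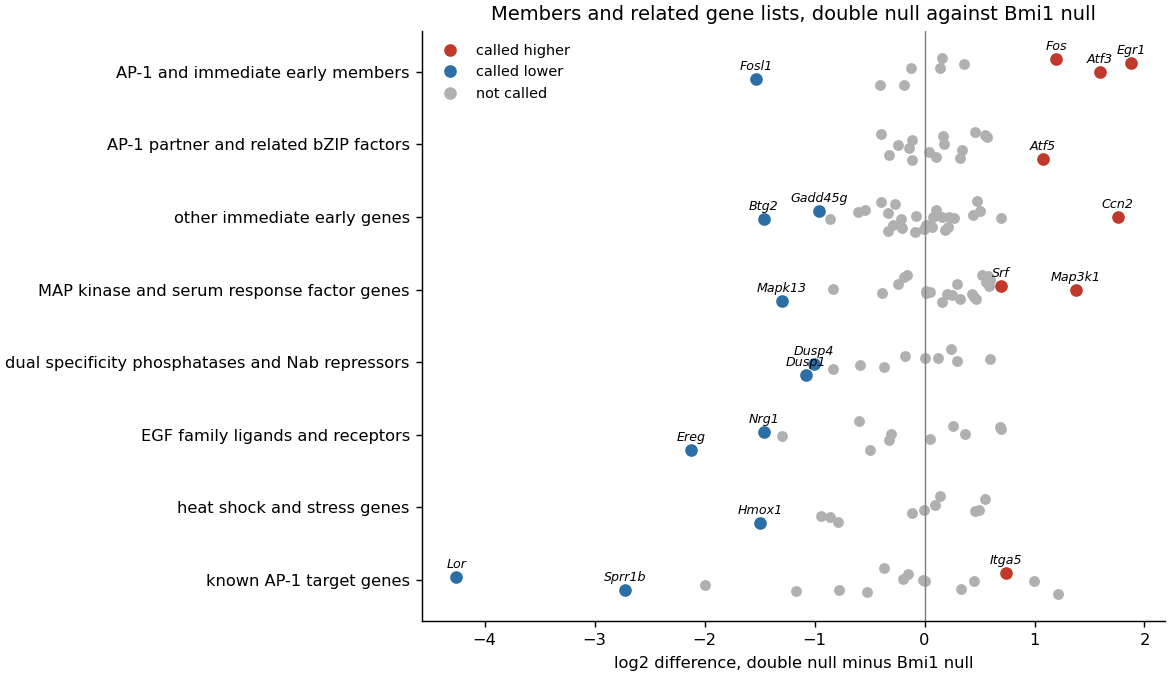
Difference in log2 level, double null minus Bmi1 null, for every tested gene of the AP-1 and immediate early members and of the 7 related lists, 1 point per gene. Red points were called higher, blue points called lower and grey points not called, and called genes are named. Most genes of each list are grey and lie around 0.

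Against wild type, a larger share of the members was called higher, and a smaller share lower, than of all genes. Junb is counted here on its brighter probe. The all-gene shares include genes dim on some arrays, while every member probe was well above background on all 12. In double null colonies 7 of the 10 were called higher (Jund, Egr1, Fosl2, Fos, Ier2, Jun, Fosl1) and 2 lower (Fosb, Junb), and Atf3 was not called, where 25.5% of all genes were called higher and 59.9% lower. In Bmi1 null colonies 5 were called higher (Fosl1, Jund, Fosl2, Ier2, Jun) and 3 lower (Junb, Fosb, Atf3), where 25.2% of all genes were called higher and 58.3% lower. Relative to the all-gene median, Fosb was at -0.24 in double null and -0.22 in Bmi1 null colonies. Junb was at -0.89 in double null and -0.65 in Bmi1 null colonies, and Atf3 at -0.14 in Bmi1 null colonies. All other member differences were above that median. The members' median difference lay 2.42 above the all-gene median in double null and 1.63 above it in Bmi1 null colonies. That distance was smaller with other processing. It was 1.23 in double null and 0.57 in Bmi1 null colonies after quantile normalization, 1.10 in double null and 0.42 in Bmi1 null colonies in the authors' deposited table, and 1.40 in double null and 0.70 in Bmi1 null colonies over probes well above background on all 12 arrays. With normexp background correction it was 1.22 in double null colonies. With median scaling 8 members were called higher and 1 lower in double null colonies, beside 36.7% and 42.9% of all genes, and 7 higher and 1 lower in Bmi1 null colonies, beside 36.9% and 41.8%. Both comparisons use the same wild-type arrays.

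Jund, the Jun gene expressed most steadily in resting cells, had levels of 2.15, 2.40, 2.65 and 2.62 in double null and 2.47, 2.27, 3.05 and 2.50 in Bmi1 null colonies, against 0.19, 1.35, -0.35 and 0.31 in wild-type colonies. The mutant groups lay above all wild-type colonies, of which replicate 3 came nearest. The difference was 2.08 ± 0.32 for double null (limma adjusted p = 4.89e-05) and 2.20 ± 0.32 for Bmi1 null colonies (limma adjusted p = 3.41e-05).

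Fosl2, which encodes Fra-2, had levels of 4.19, 4.75, 4.91 and 4.54 in double null and 4.17, 4.64, 4.62 and 4.39 in Bmi1 null colonies, against 3.03, 2.86, 2.997 and 2.97 in wild-type colonies. The wild-type colonies differed by under 0.2 and lay below every mutant colony. The difference was 1.63 ± 0.20 for double null (limma adjusted p = 6.9e-06) and 1.49 ± 0.20 for Bmi1 null colonies (limma adjusted p = 1.68e-05). It was smaller after quantile normalization, at 0.48 for double null (limma adjusted p = 0.039) and 0.39 for Bmi1 null colonies (limma adjusted p = 0.0834).

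Jun, the partner of Fos in the classical AP-1 dimer, had levels of -0.61, 0.049, -0.17 and 0.028 in double null and -0.30, -0.22, -0.40 and -0.41 in Bmi1 null colonies, against -1.18, -0.94, -1.18 and -0.90 in wild-type colonies. Both mutant groups were above wild type without overlap. The difference was 0.87 ± 0.19 for double null (limma adjusted p = 0.000807) and 0.71 ± 0.19 for Bmi1 null colonies (limma adjusted p = 0.00351).

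Ier2 averaged 1.65 ± 0.15 in double null and 1.29 ± 0.39 in Bmi1 null colonies, against 0.49 ± 0.20 in wild-type colonies (SD, n = 4 each). The lowest Bmi1 null colony, at 0.85, was just above the highest wild-type colony, at 0.78. The difference was 1.16 ± 0.22 for double null (limma adjusted p = 0.000238) and 0.80 ± 0.22 for Bmi1 null colonies (limma adjusted p = 0.00383). With slide as a block the double null difference was 0.72 (limma adjusted p = 0.0541), and after quantile normalization the Bmi1 null difference was 0.45 (limma adjusted p = 0.0775). In the authors' deposited table the Bmi1 null difference was 0.30 (limma adjusted p = 0.202).

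Fosl1 had levels of -2.57, -2.86, -2.45 and -2.66 in wild-type colonies, below all Bmi1 null colonies. Of these wild-type colonies 2 overlapped the double null range and 2 lay below it. In Bmi1 null colonies it was higher by 2.22 ± 0.27 (limma adjusted p = 7.84e-06) or 4.66-fold. The size depended on the processing, at 1.46 with normexp background correction, 3.15 with median scaling and 3.67 after quantile normalization. In double null colonies the difference was 0.69 ± 0.27 (limma adjusted p = 0.0294). That call was lost without double null replicate 1 (0.46), double null replicate 3 (0.59), wild-type replicate 3 (0.61) or wild-type replicate 5 (0.68).

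Fos and Egr1 separated the double null from both other genotypes. Fos in wild-type colonies was -1.90, -1.52, -1.94 and -1.24, and Egr1 was -0.36, 0.20, 0.25 and 0.68, so each overlapped the Bmi1 null colonies. In double null colonies the difference from wild type was 1.26 ± 0.27 for Fos (limma adjusted p = 0.000741) and 1.95 ± 0.36 for Egr1 (limma adjusted p = 0.00022). In Bmi1 null colonies it was 0.06 for Fos, with a 95% interval of -0.52 to 0.65, and 0.07 for Egr1, with an interval of -0.70 to 0.85. The Bmi1 null values depended on the scaling. With median scaling they were 0.997 for Fos (limma adjusted p = 0.00595) and 1.01 for Egr1 (limma adjusted p = 0.027). Quantile normalization gave 1.15 for Fos (limma adjusted p = 0.00303) and -0.029 for Egr1 (limma adjusted p = 0.946). In the authors' deposited table they were 0.97 for Fos (limma adjusted p = 0.00112) and 0.34 for Egr1 (limma adjusted p = 0.435).

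Atf3 was lower in Bmi1 null colonies. Wild-type levels were -0.30, -0.50, -0.29 and -0.45, within the double null range and above every Bmi1 null colony. The difference was -1.38 ± 0.28 in Bmi1 null colonies (limma adjusted p = 0.000484). It was 0.22 in double null colonies, with a 95% interval of -0.38 to 0.82, but 1.62 relative to the all-gene median and 1.25 with median scaling, where it was called (limma adjusted p = 0.000335). Relative to the all-gene median the Bmi1 null difference was -0.14, and with median scaling it was -0.44 (limma adjusted p = 0.107), while quantile normalization gave -0.96 (limma adjusted p = 0.0034).

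Fosb, an early Fos gene with a truncated splice form in neurons, was lower in both mutants. Levels were -1.39, -1.44, -1.39 and -2.53 in double null and -2.16, -1.24, -1.56 and -1.05 in Bmi1 null colonies, against 0.051, -0.026, -0.041 and -0.16 in wild-type colonies. No mutant colony reached the narrow wild-type range. The difference was -1.64 ± 0.30 for double null (limma adjusted p = 0.000188) and -1.46 ± 0.30 for Bmi1 null colonies (limma adjusted p = 0.000516). With median scaling it was -0.62 for double null (limma adjusted p = 0.0513) and -0.53 for Bmi1 null colonies (limma adjusted p = 0.0911), and relative to the all-gene median it was -0.24 for double null and -0.22 for Bmi1 null colonies. Quantile normalization kept both calls, at -1.34 for double null and -1.24 for Bmi1 null colonies.

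The sizes of the other called differences also moved with the processing. Over 75th percentile scaling, median scaling, quantile normalization, normexp correction and the authors' deposited table, Jund ran from 1.65 to 3.11 in double null and from 1.80 to 3.13 in Bmi1 null colonies. Jun ran from 0.67 to 1.90 in double null and from 0.53 to 1.65 in Bmi1 null colonies. Ier2 ran from 0.68 to 2.19 in double null and from 0.30 to 1.73 in Bmi1 null colonies, and Fosl2 from 0.42 to 2.66 in double null and from 0.34 to 2.42 in Bmi1 null colonies. In double null colonies Fos ran from 0.90 to 2.29, Egr1 from 1.63 to 2.98 and Fosl1 from 0.53 to 2.43. All of these kept their direction.

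**Figure D4:**
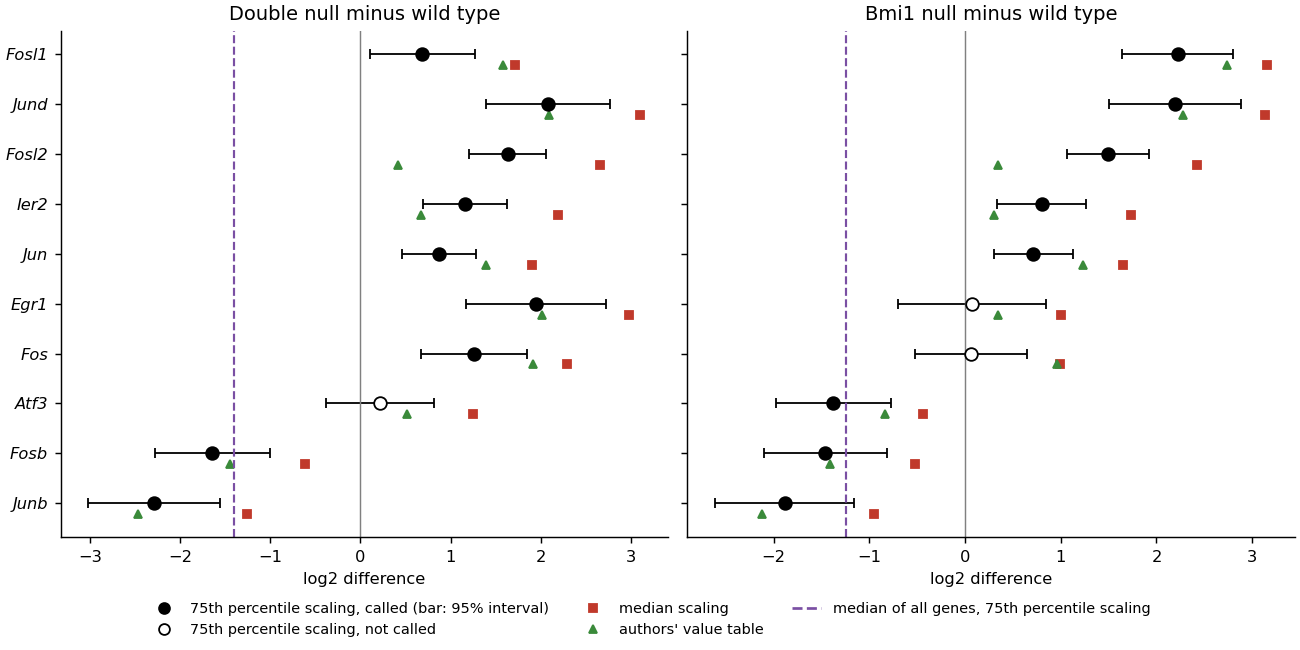
Difference in log2 level from wild type for each of the 10 genes, double null at the left and Bmi1 null at the right. Circles are 75th percentile scaling with 95% intervals, filled where called, small symbols are median scaling and the authors' value table, and the dashed line is the median of all genes. Except for Atf3, Fosb and Junb, every member lies at or above 0 and well right of the dashed line.

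Junb, a Jun gene that restrains proliferation in several tissues, gave opposite answers from its 2 probes. On the brighter probe levels were 4.85, 5.76, 5.204 and 4.89 in double null and 5.85, 5.29, 4.92 and 6.26 in Bmi1 null colonies, against 7.97, 6.99, 7.81 and 7.10 in wild-type colonies. On the dimmer probe they were 0.96, 1.59, 1.22 and 1.78 in double null and 1.19, 1.23, 2.23 and 2.14 in Bmi1 null colonies, against -1.92, -1.55, -2.27 and -1.56 in wild-type colonies. On each probe the mutants were fully separated from wild type, below it on the first and above it on the second. The double null difference was -2.29 ± 0.33 on the brighter probe (limma adjusted p = 3.55e-05) and 3.21 ± 0.30 on the dimmer one (limma adjusted p = 8.35e-07). The Bmi1 null difference was -1.88 ± 0.33 on the brighter probe (limma adjusted p = 0.000191) and 3.52 ± 0.30 on the dimmer one (limma adjusted p = 4.72e-07). With median scaling the brighter probe differed by -1.26 in double null (limma adjusted p = 0.00548) and -0.95 in Bmi1 null colonies (limma adjusted p = 0.0263). The direction of Junb against wild type is therefore not settled by these arrays. The probes gave the same sign between double null and Bmi1 null colonies, at -0.41 and -0.31, neither called.

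The 2 probes of Fosl2 gave the same direction against wild type. The dimmer probe was higher by 1.35 ± 0.26 in double null (limma adjusted p = 0.000335) and by 0.99 ± 0.26 in Bmi1 null colonies (limma adjusted p = 0.00343).

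**Figure D5:**
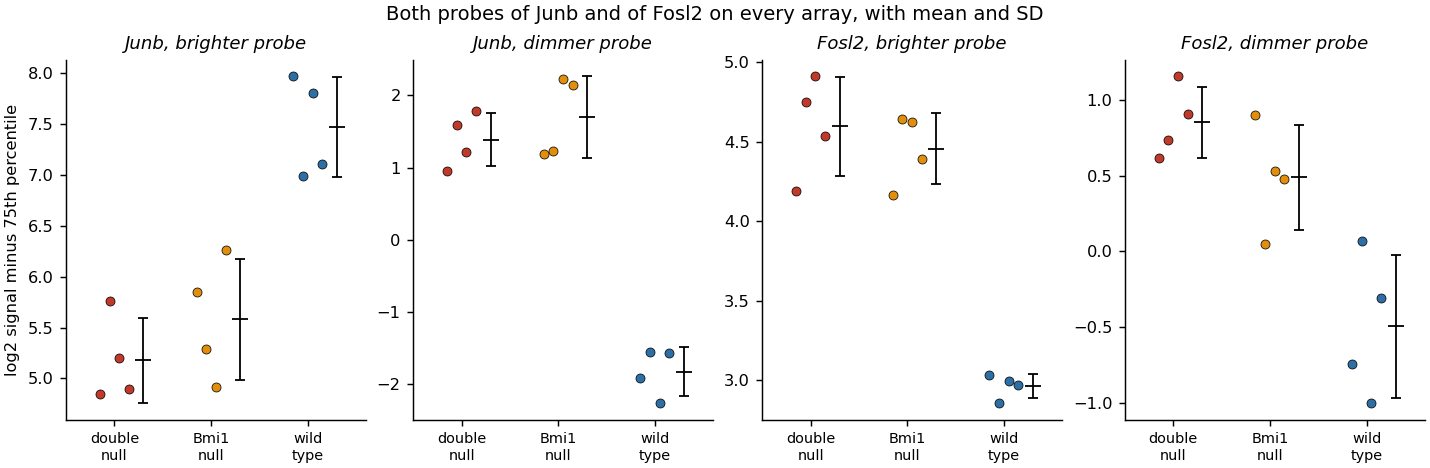
Levels of both probes of Junb and both probes of Fosl2 on every array (log2 signal relative to the array's 75th percentile), double null left, Bmi1 null in the middle and wild type right, with mean and SD of 4 colonies. The Junb probes place wild type on opposite sides of the mutants, while both Fosl2 probes place it below them.

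Within slide 2 the double null colony exceeded the wild-type one for Fos (1.10), Egr1 (2.42), Fosl1 (1.21), Fosl2 (2.06), Jun (0.77), Jund (1.30) and Ier2 (0.91), and was below it for Fosb (-1.37) and Junb (-1.79). The Bmi1 null differences within slide 1, with 2 colonies of each genotype, were 2.14 for Fosl1, 2.56 for Jund, 1.26 for Fosl2, 0.69 for Ier2, 0.82 for Jun, -1.61 for Fosb, -1.83 for Junb and -1.60 for Atf3. Within slide 2 they had the same signs, at 2.31 for Fosl1, 0.92 for Jund, 1.79 for Fosl2, 0.46 for Ier2, 0.71 for Jun, -1.21 for Fosb, -1.70 for Junb and -0.87 for Atf3. Double null colonies shared no other slide with wild type.

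Related genes were mostly above the all-gene median against wild type as well, on the scaling used for levels here. On that scaling the all-gene median lay at -1.41 in double null and -1.24 in Bmi1 null colonies. Over probes well above background on all 12 arrays it was -0.38 in double null and -0.31 in Bmi1 null colonies. In the authors' deposited table it was -0.07 in double null and -0.08 in Bmi1 null colonies. List distances, here and in the paragraphs that follow, use the first of these medians. Their size with other processing was not tested. Across all genes, 25.5% were called higher and 59.9% lower in double null colonies, and 25.2% higher and 58.3% lower in Bmi1 null colonies. With median scaling these shares were 36.7% and 42.9% in double null, and 36.9% and 41.8% in Bmi1 null colonies. Of 30 other immediate early genes, 15 were higher and 8 lower in double null colonies, at a median 2.22 above that of all genes, and 16 were higher and 8 lower in Bmi1 null colonies, 2.18 above it. With median scaling 21 were higher and 3 lower in double null colonies, and 20 higher and 3 lower in Bmi1 null colonies. Btg2 was higher by 1.46 in double null and 2.93 in Bmi1 null colonies, Myc by 1.93 in double null and 2.48 in Bmi1 null colonies and Klf4 by 2.17 in double null and 2.46 in Bmi1 null colonies. Egr2, a relative of Egr1, differed by -1.94 in double null and -2.10 in Bmi1 null colonies. In double null colonies it averaged -2.12 ± 0.10, against -0.17 ± 0.13 in wild-type colonies. Of 16 bZIP factors, 8 were higher and 5 lower in double null colonies and 7 higher and 5 lower in Bmi1 null colonies, with a median above that of all genes by 1.91 in double null and 1.23 in Bmi1 null colonies. With median scaling 10 were higher and 1 lower in double null colonies, and 10 higher and 2 lower in Bmi1 null colonies. Atf5 differed by 3.07 and Atf4 by 2.46 in double null colonies.

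The same all-gene shares, 25.5% higher and 59.9% lower in double null and 25.2% and 58.3% in Bmi1 null colonies, apply to these lists. With median scaling they were 36.7% and 42.9% in double null and 36.9% and 41.8% in Bmi1 null colonies. Of 24 MAP kinase and serum response factor genes, 17 were higher and 4 lower in double null colonies and 16 higher and 5 lower in Bmi1 null colonies. Their median lay above that of all genes by 2.22 in double null and 2.03 in Bmi1 null colonies. Mapk8, which encodes the Jun kinase JNK1, differed by 2.31 in double null and 1.99 in Bmi1 null colonies. Of 11 phosphatases and Nab repressors, 7 were higher and 1 lower in double null colonies and 8 higher and 1 lower in Bmi1 null colonies, with Dusp7 at 2.12 in double null and 2.71 in Bmi1 null colonies. Of 12 EGF family genes, 8 were higher and 3 lower in double null colonies and 7 higher and 2 lower in Bmi1 null colonies. Of the receptor genes, Erbb2 differed by 2.85 and Erbb3 by 2.27 in double null colonies, and of the ligand genes Nrg1 differed by 2.87 and Epgn by 2.64 in Bmi1 null colonies. Of 11 heat shock and stress genes, 7 were higher and 2 lower in double null colonies and 8 higher and 1 lower in Bmi1 null colonies. With median scaling 0 of the heat shock and stress genes were lower, and 9 were higher in double null and 10 in Bmi1 null colonies. Lower calls also became fewer with that scaling among MAP kinase and serum response factor genes (2 in double null and 3 in Bmi1 null colonies) and EGF family genes (1 in each). The medians of the phosphatase, EGF family and heat shock lists lay 2.39 to 2.94 above that of all genes in double null and 2.56 to 2.69 above it in Bmi1 null colonies.

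Beside the all-gene shares of 25.5% higher and 59.9% lower in double null colonies, 6 of 16 AP-1 target genes were higher and 4 lower. In Bmi1 null colonies 8 were higher and 5 lower, beside 25.2% and 58.3% of all genes. The median of these targets lay above that of all genes by 1.97 in double null and 1.65 in Bmi1 null colonies. With median scaling 8 were higher and 2 lower in double null colonies, and 10 higher and 4 lower in Bmi1 null colonies. The cornified envelope genes among them split. Sprr1a averaged 5.18 ± 1.08 in double null and 7.17 ± 0.42 in Bmi1 null colonies, against 2.48 ± 1.62 in wild-type colonies. Ivl, which encodes involucrin, averaged -2.93 ± 0.87 in double null and -2.92 ± 0.39 in Bmi1 null colonies, against -0.21 ± 0.21 in wild-type colonies.

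Markers of other cells moved with these comparisons. All 9 immune markers tested were called lower in both mutants, and their summed linear level was 0.839 to 1.43 in double null and 0.965 to 1.38 in Bmi1 null colonies, against 9.52 to 11.8 in wild-type colonies. All 6 endothelial markers were called lower in both mutants, with sums of 0.541 to 1.04 in double null and 0.416 to 0.799 in Bmi1 null colonies, against 2.21 to 3.17 in wild-type colonies. Of all genes, 59.9% were called lower in double null and 58.3% in Bmi1 null colonies. Relative to the all-gene median, the immune median was -2.12 in double null and -2.07 in Bmi1 null colonies. The endothelial median was -0.75 in double null and -1.02 in Bmi1 null colonies. With median scaling 9 immune and 5 endothelial markers were called lower in each mutant. Some endothelial differences were smaller in the authors' deposited table. There Tek differed by -0.44 in Bmi1 null colonies and was not called (limma adjusted p = 0.156), against -2.62 on the scaling used here. Cdh5 differed there by -0.82 in double null and -0.64 in Bmi1 null colonies, against -3.51 and -3.18 here. The epithelial list summed to 449.6 to 893.4 in double null and 492.4 to 679.6 in Bmi1 null colonies, against 134.6 to 411.3 in wild-type colonies, and the mesenchymal list to 66.2 to 162.4 in double null and 55.4 to 84.3 in Bmi1 null colonies, against 31.2 to 47.1 in wild-type colonies. Single mesenchymal markers did not follow that sum: 5 of 12 were called lower and 2 higher in double null colonies, and 6 lower and 2 higher in Bmi1 null colonies. Acta2, a smooth muscle actin gene, made up much of the sum. Its level was 6.35 ± 0.64 in double null and 5.91 ± 0.32 in Bmi1 null colonies, against 4.76 ± 0.42 in wild-type colonies. In the authors' deposited table Acta2 differed by 0.63 in double null (limma adjusted p = 0.0137) and 0.29 in Bmi1 null colonies (limma adjusted p = 0.222). Lum and Dcn, genes of matrix proteoglycans, were called lower in both mutants. Lum was well above background on only 1 of 4 double null and 2 of 4 Bmi1 null arrays. It was not called in the authors' deposited table. There it differed by -0.15 in double null (limma adjusted p = 0.41) and -0.19 in Bmi1 null colonies (limma adjusted p = 0.295). Dcn was lower in that table too, at -0.73 in double null and -0.90 in Bmi1 null colonies. No marker of these lists was without signal above background in any genotype. Their part in the AP-1 differences was not tested.

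The profile of a gene over the 12 arrays, with its own mean taken off, was set against those of 16434 named genes by the root mean square difference. Nearest to Fos were Nsun4 (0.184), Naa20 (0.198) and Slc49a4 (0.209), where the median gene was at 1.04. Nearest to Jun were Commd5 (0.0899), Med20 (0.117) and Mrrf (0.123), where the median gene was at 0.850. Nearest to Atf3 were Kif4 (0.293), Mybl2 (0.305) and Spag5 (0.317), where the median gene was at 1.17. Kif4 shared the dip of Atf3 in Bmi1 null colonies, averaging 0.81 ± 0.39 in double null and -0.58 ± 0.12 in Bmi1 null colonies, against 0.91 ± 0.29 in wild-type colonies. Among the members, the nearest pairs were Jun with Ier2 (0.284) and Fosl2 with Ier2 (0.358), Fos lay nearest to Egr1 (0.50), and Fosb lay nearest to Junb on its brighter probe (0.572). The pair farthest apart was Junb and Jund (2.13). All profiles share the same 12 arrays and their scaling, so these values are descriptions.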

How the data were processed

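Amplified, Cy3-labelled cDNA of 12 colonies was measured on 1-colour Agilent mouse arrays, per the labels' protocols. The deposited scanner files hold a background-subtracted signal intensity per spot from Feature Extraction 10.7.3.1 (protocol GE1_107_Sep09), per the file headers. A deposited table holds the authors' processed log2 values. Its column medians were 7.21 to 7.24 and its correlation with log2 signal was 0.925 to 0.971 per array, and its between-array method was not given in the sources used here.

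Control spots and outlier spots were left out. The level was log2 signal relative to the array's 75th percentile. Probes well above background on at least 3 of 4 arrays of a genotype were kept (39338 of 41174), the brightest probe stood for a gene, and 31064 genes were tested. Names came from accessions matched to RefSeq (GRCm38.p6), by which 24844 probes had 1 symbol. Genotype means of all 12 arrays entered 1 limma 3.58.1 fit (R 4.3.3, 9 residual degrees of freedom) with Benjamini-Hochberg adjustment, called under 0.05, after a test on simulated data. With 12 arrays their number limits the precision.

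Replicate numbers did not pair the arrays: 3 of 10 same-number pairs correlated above 0.1 (-0.148 to 0.215). The members, the lists and the markers were chosen with earlier results of these data known. From each list the text names called genes from among those with the largest rise or fall, and 3 nearest profiles each for Fos, Jun and Atf3.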

Additional observations from a re-analysis of the deposited data

Results flagged for a closer look

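Fosb in double null colonies was examined further because 1 of its 4 arrays stood apart. Replicate 4 lay at -2.53, while the other 3 lay between -1.44 and -1.39, so the gap was 0.9578 of the whole range, above Dixon's 95% critical value for 4 samples. This was 1 of 36 sets of 4 arrays examined, and chance flags about 1 in 20. Without double null replicate 4 the Fosb difference was 0.094 between double null and Bmi1 null colonies, with both groups at or below -1.05 and wild type at or above -0.16.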

How the results depend on the processing

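Members called higher and lower against Bmi1 null in double null colonies numbered 3 and 1, but 0 and 0 with slide as a block, and 1 (Atf3) and 0 with median scaling and slide together, an alternative added after seeing the data. Members called lower in Bmi1 null against wild type numbered 1 with median scaling, with or without the slide block. In double null colonies they numbered 1 with median scaling, 1 with the mean of a gene's probes, 1 with the dimmer probes of Junb and Fosl2 (also added later) and 0 with median scaling and slide together. With a replicate block the counts between the mutants stayed 3 and 1, at 4.48% of all genes called.

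Signs that turned belonged to uncalled differences or to Junb. Junb in double null against wild type was 0.46 with the mean of its probes and 3.21 on the dimmer probe, and in Bmi1 null against wild type 0.82 and 3.52, and between the mutants it was 0.089 with median scaling and slide together. With normexp background correction, run on the median spot signal because the files hold no mean signal, Fos in Bmi1 null against wild type was -0.047, Fosb between the mutants 0.038 and the members' median minus that of all genes between the mutants -0.23. Egr1 in Bmi1 null against wild type was -0.029 after quantile normalization. Leaving out 1 array gave ranges of -0.15 to 0.24 for Fos and -0.31 to 0.27 for Egr1 in Bmi1 null against wild type, -0.038 to 0.42 for Atf3 in double null against wild type, and -0.41 to 0.094 for Fosb and -0.22 to 0.040 for Jund between the mutants. The cause of these changes was not tested. All 12 member probes passed the scanner software's background test, but so did nearly all olfactory receptor genes on wild-type arrays. Wild-type Fosl1 signals were 41.0 to 79.1, below the array medians, which ran from 109.3 to 209.6 on wild-type arrays. Wild-type signals were 68.4 to 211.6 for Fos and 57.2 to 169.5 for the dimmer Junb probe. The lowest signals of both were also below those medians.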
